A study of Homo sapiens with 3 samples.

Results

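The 31 genes described here encode the pyruvate dehydrogenase complex, enzymes of the tricarboxylic acid (TCA) cycle, the malate-aspartate shuttle, malic enzymes, citrate export and the handling of glutamine and glutamate. They were picked by gene symbol for these functions, and 31 of 31 were found among the 25270 entries listed. RNA-seq was performed on 3 libraries labelled as HepG2, a human liver cancer cell line, with 1 library per condition. Parental HepG2 received no treatment. The label of HepG2/metR gives over 5 months of metformin, a biguanide drug used in diabetes that acts on respiration, and the line was obtained by selection. The last library is HepG2/metR kept for 24 h in 40 mM oxamate, which blocks lactate dehydrogenase. The growth medium named for parental HepG2 and HepG2/metR is the same, and whether metformin was present at harvest is not given in the sources used here. HepG2/metR was used both as the treated arm against parental cells and as the reference for oxamate, so the 2 comparisons share a library.

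Levels are given in FPKM (fragments per kilobase of transcript, relative to all mapped fragments), computed back from deposited values of the form log2(FPKM + 1). A change is the difference of deposited log2 values. It therefore includes a pseudocount of 1 FPKM and understates changes of genes with low levels. Genes with a mean of at least 1 FPKM over the 3 libraries were kept, 12210 in all, and 31 of the 31 genes of these pathways were among them. GLS2 was kept only through its level in the parental library, and ME1 and ME3 only through the HepG2/metR libraries, so for these 3 the filter favours a difference. A gene was counted as higher or lower in HepG2/metR at a 2-fold difference (1 on the log2 scale) and with oxamate at a 1.5-fold difference (0.58). No difference has a replicate check and no p-value was computed. The depth in reads is unknown; relative to the parental library it was read as 1.21 in HepG2/metR and 1.24 with oxamate. Total FPKM was 562382, 534646 and 473773 in the parental, HepG2/metR and oxamate libraries.

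The libraries were checked against the label of a liver cell line, and the HepG2/metR pair went against it. Of 18 hepatocyte markers, 18 passed the 2-fold threshold downward in the library labelled HepG2/metR, against 17.6% of all genes kept. Of these, 16 were under 1 FPKM in both HepG2/metR libraries and so were kept through the parental library. The summed marker level was 35489 FPKM in parental HepG2, 14.4 FPKM in HepG2/metR and 11.8 FPKM with oxamate. The median marker was at 904, 0.0235 and 0.105 FPKM in that order. The most abundant marker of parental HepG2 was APOA2, an apolipoprotein, at 11976 FPKM, while in HepG2/metR it was SERPINA1, a secreted protease inhibitor, at 11.2 FPKM. HNF4A, the liver transcription factor, was at 68.7, 0.0156 and 0.0153 FPKM. APOA1, APOC3, TTR, FGA, FGG, RBP4, AMBP and HP were listed at 0 in HepG2/metR.

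Markers of mesenchymal cells differed in which of them were abundant. Of 12 mesenchymal markers kept, 6 were higher and 3 lower in HepG2/metR (16.6% and 17.6% of all genes kept were). ZEB2, TWIST1, SNAI2 and THY1 were kept only through the HepG2/metR libraries, so the filter favours the count of higher markers. The whole list of mesenchymal markers summed to 1638, 2298 and 1751 FPKM. The most abundant was FN1, a matrix glycoprotein, in parental HepG2 (1503 FPKM, against 45.7 in HepG2/metR) and VIM, an intermediate filament protein, in HepG2/metR (1576 FPKM, against 1.23 in parental HepG2). With oxamate, 4 of these 12 were higher and 0 lower, against 4.3% and 3.82% of all genes kept. Endothelial markers summed to 2.29, 2.47 and 3.08 FPKM, mostly TIE1, and PECAM1 and CDH5 were listed at 0 in HepG2/metR. Among leukocyte markers, which summed to 3417, 0.904 and 1.04 FPKM, PTPRC and CD3E were at or under 0.0430 FPKM in every library, and LYZ, a lysozyme gene, stood at 3415 FPKM in parental HepG2 and at 0 in HepG2/metR. These marker differences move with every difference between HepG2/metR and parental HepG2 given here, and their part in it was not tested. An effect of metformin, a selection of cells and a difference between cultures cannot be told apart with 1 library of each. Whether the culture labelled HepG2/metR descends from parental HepG2 was not tested. Of the lactate dehydrogenase subunits, which lie outside the 31 genes and were looked up after other values had been seen, LDHB was at 0.298, 983 and 712 FPKM and LDHA at 642, 1150.2 and 823 FPKM. Nor can fewer cells of a kind and less RNA per cell be told apart in bulk RNA.

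As background, pyruvate from glycolysis enters mitochondria and is turned into acetyl-CoA by pyruvate dehydrogenase. The TCA cycle oxidises it, passing electrons to NAD and FAD for the respiratory chain, and cells with limited respiration are known to depend on lactate dehydrogenase to restore cytosolic NAD. NADP-linked isocitrate dehydrogenases and malic enzymes are side routes that supply NADPH, and glutamine feeds the cycle through glutamate; in liver, glutamine synthetase is known as a marker of the hepatocytes around the central vein.

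In HepG2/metR, 2 of the 31 genes (6.45%) were at least 2-fold higher than in parental HepG2, against 16.6% of all genes kept, and 6 of 31 (19.4%) were at least 2-fold lower, against 17.6% of all genes kept. The share of lower genes is near the background. The higher genes were ME1 and ME3, and the lower genes were IDH1, IDH2, SLC25A1, GLUD1, GLS2 and GLUL. As given above, the filter favours the calls of ME1, ME3 and GLS2. With oxamate, 1 of 31 (3.23%) was at least 1.5-fold lower, against 3.82% of all genes kept, and 0 of 31 were higher, against 4.3%. The lower gene was GOT1, which passed the threshold by a small margin. Over the 31 genes the changes had a median of -0.20 in HepG2/metR and -0.10 with oxamate, beside 0.02 and 0.02 for all genes kept. Their median absolute change was 0.42 in HepG2/metR and 0.11 with oxamate, beside 0.65 and 0.21 for all genes kept. Summed over the 31 genes, the level was 2077 FPKM in parental HepG2, 1368 FPKM in HepG2/metR and 1205 FPKM with oxamate, or 0.369%, 0.256% and 0.254% of total FPKM.

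**Figure D1:**
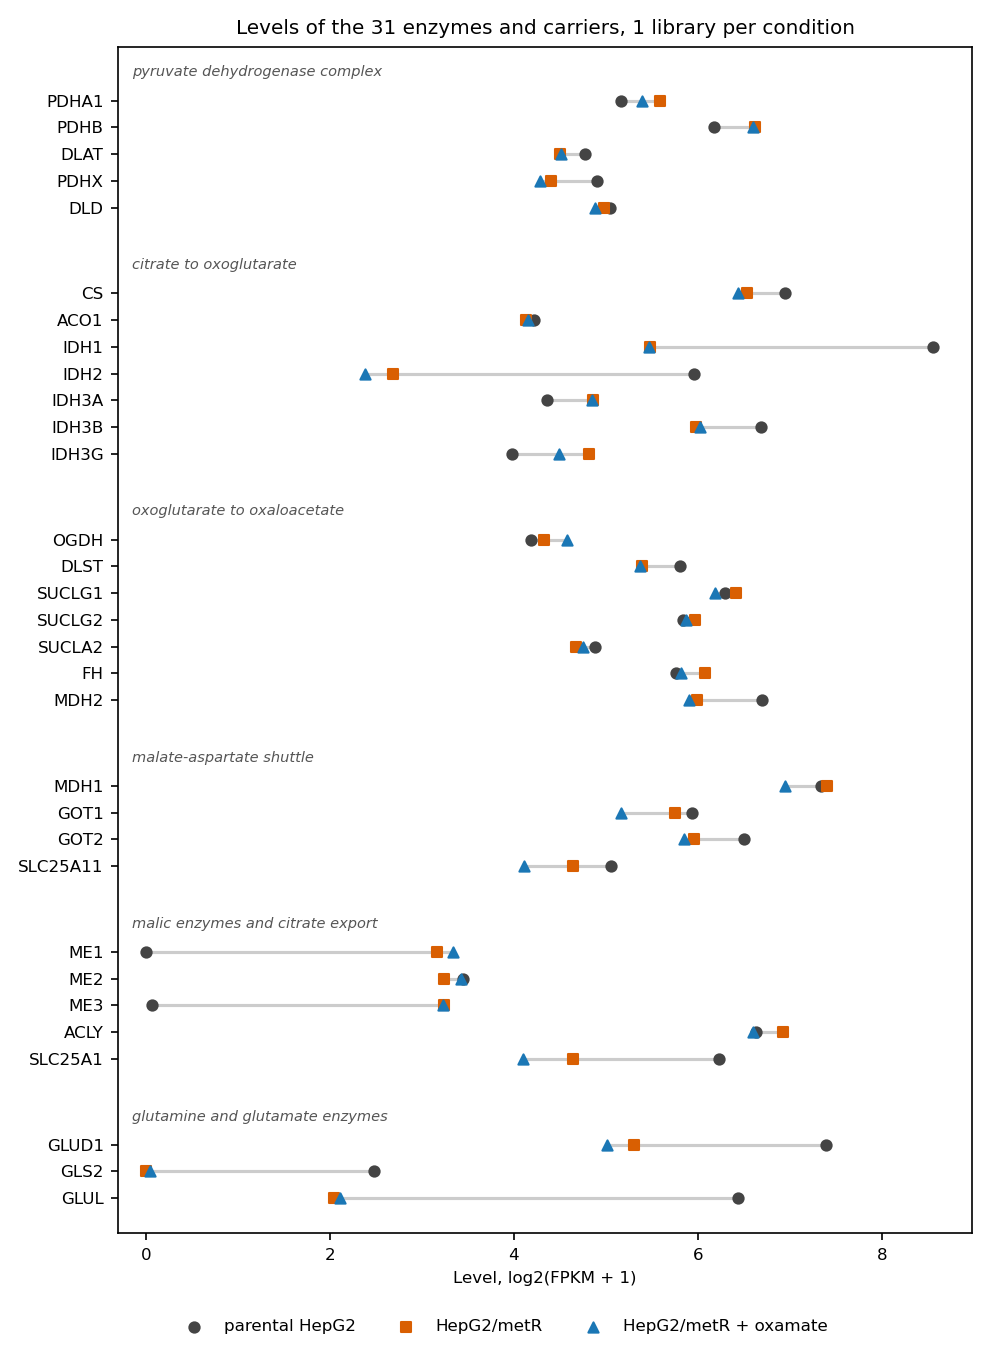
Level of each of the 31 genes in 3 libraries, as log2(FPKM + 1), with genes grouped by role; circles are parental HepG2, squares HepG2/metR and triangles HepG2/metR with oxamate, and each point is 1 library. The triangles of IDH1, GLUL and ME3 lie almost on their squares, far from the circles, while the 3 symbols lie close together for the genes of the pyruvate dehydrogenase complex.

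The pyruvate dehydrogenase complex, which commits pyruvate to the cycle, stayed within the 2-fold threshold throughout. PDHA1 and PDHB, the subunits of its decarboxylase component, were at 34.8 and 71.4 FPKM in parental HepG2, at 47.0 and 97.0 FPKM in HepG2/metR, and at 41.1 and 95.8 FPKM with oxamate. Their ratio within a library, which does not depend on scaling between libraries, was 0.487, 0.485 and 0.429. DLAT, the acetyltransferase, was at 26.4, 21.6 and 21.8 FPKM. PDHX, which binds the dehydrogenase DLD to the complex, was at 28.9, 20.2 and 18.5 FPKM. DLD itself, also part of the oxoglutarate dehydrogenase complex, was at 31.9, 30.6 and 28.4 FPKM. The 5 genes summed to 193, 216 and 206 FPKM, and their changes ran from -0.50 to 0.44 in HepG2/metR and from -0.19 to 0.01 with oxamate.

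The genes among the 31 for the steps from oxoglutarate to oxaloacetate, and that of citrate synthase, likewise showed no difference past either threshold. CS, which joins acetyl-CoA to oxaloacetate, was at 123 FPKM in parental HepG2, 91.6 FPKM in HepG2/metR and 85.5 FPKM with oxamate. FH, the fumarase, was at 53.1, 66.7 and 55.2 FPKM. MDH2, which closes the cycle by oxidising malate, was at 103, 62.5 and 58.9 FPKM, a change of -0.71 in HepG2/metR. OGDH and DLST belong to the oxoglutarate dehydrogenase complex. OGDH was at 17.3, 19.1 and 22.8 FPKM, a change of 0.25 with oxamate. DLST was at 54.9, 40.9 and 40.2 FPKM. The succinyl-CoA synthetase genes varied less. SUCLG1, the shared subunit, was at 77.4, 84.2 and 71.5 FPKM. The GTP-linked SUCLG2 was at 56.3, 61.6 and 57.3 FPKM and the ATP-linked SUCLA2 at 28.5, 24.6 and 25.9 FPKM, a ratio of SUCLA2 to SUCLG2 of 0.506, 0.400 and 0.452. SUCLG2-AS1, an antisense gene of SUCLG2, was listed at 3.10, 1.01 and 1.68 FPKM; whether reads were counted by strand is not given in the sources used here, so reads of the pair may not be separated.

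The 3 subunit genes of the NAD-linked isocitrate dehydrogenase differed among themselves. IDH3A, of the catalytic subunit, was at 19.6, 28.1 and 27.8 FPKM in parental HepG2, HepG2/metR and oxamate-treated cells. IDH3B was at 102, 62.1 and 64.0 FPKM, and IDH3G at 14.7, 27.2 and 21.4 FPKM. None passed a threshold by itself, with changes in HepG2/metR of 0.50, -0.70 and 0.84, but the balance between subunits shifted. The ratio of IDH3B to IDH3G was 6.89 in parental HepG2, 2.29 in HepG2/metR and 2.99 with oxamate, and the ratio of IDH3A to IDH3B was 0.192, 0.452 and 0.434. Summed over the 3 subunits, the level was 136, 117 and 113 FPKM.

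Both NADP-linked isocitrate dehydrogenases fell in HepG2/metR. IDH1, the cytosolic and peroxisomal enzyme and the most abundant of the 31 genes in parental HepG2, was at 374 FPKM there, at 43.5 FPKM in HepG2/metR and at 43.4 FPKM with oxamate. It was 8.60-fold lower in HepG2/metR than in parental HepG2. IDH2, the mitochondrial enzyme, was at 61.3, 5.42 and 4.22 FPKM, 11.3-fold lower in HepG2/metR. The levels in both HepG2/metR libraries were thus far below parental HepG2, and with oxamate the changes were -0.0034 for IDH1 and -0.30 for IDH2. The ratio of IDH1 to IDH2 was 6.10, 8.02 and 10.3. Together they summed to 435 FPKM in parental HepG2, above the NAD-linked subunits, and to 48.9 and 47.6 FPKM in the other libraries, below them. IDH1-AS1, an antisense gene of IDH1, was listed at 3.50, 1.27 and 1.15 FPKM and may not be separated from it. ACO1, the cytosolic aconitase that makes isocitrate and also binds iron-responsive RNA elements, was at 17.7, 16.5 and 16.7 FPKM.

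**Figure D2:**
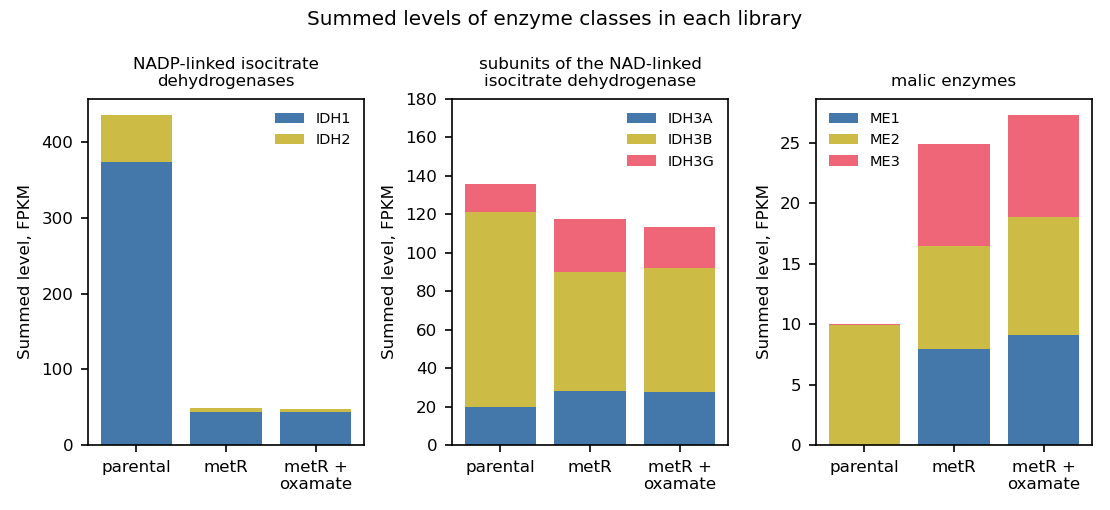
Summed level in FPKM of the NADP-linked isocitrate dehydrogenases, of the subunits of the NAD-linked isocitrate dehydrogenase and of the malic enzymes, with 1 stacked bar per library; colours are genes, the axes start at 0 and differ between panels. IDH1 and IDH2 together go from 435 FPKM in parental HepG2 to 48.9 FPKM in HepG2/metR, while the malic enzymes go from 9.99 to 24.9 FPKM.

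To show the sequence in front of the genes on which these differences rest, the 250 bases before the transcription start were taken from RefSeq (build GRCh38.p14; the submitters' notes name hg19 for the deposited values). Windows were found for 30 of the 31 genes, the exception being OGDH, with 38 windows in all. Of the 6 genes looked at most closely (IDH1, IDH2, ME1, ME3, GLUL and GOT1), windows that share at most 30 bases with annotated exons (GENCODE release 29) are printed, 5′ to 3′ on the strand of the gene, which leaves IDH1, ME1 and ME3. Where a gene has several starts, the window with the smallest exon overlap was taken. Both strands were searched for 11 motifs chosen after the values had been seen, and capitals mark the matches. No motif is contained in another, and CACGTG reads the same on both strands. The motifs, each with its share of all 35116 windows of this length, were CCAAT, bound by NF-Y, in 32.0%; GCGCATGC, bound by NRF1, in 2.63%; CCGGAAGT, bound by ETS factors, in 3.42%; and TGATGCAA, bound by ATF4 with C/EBP factors, in 0.772%. CACGTG, the E-box, was in 6.34%, TCACCCCAC, bound by SREBP, in 0.362%, TGACTCAGC, an antioxidant response element core, in 0.456%, and GGGGCGGGG, bound by Sp1, in 15.1%. CAAAGTCCA, bound by HNF4, was in 0.325%, CTTTGAT, bound by TCF/LEF factors, in 2.26%, and TATAAA, the TATA box, in 10.7%. A match describes letters only, and so does the lack of one. The window of IDH1 (chr2:208254459-208254708, minus strand), shown because the gene fell, lies outside annotated exons and holds 0 matches; its other window holds CCAAT and GGGGCGGGG. The window of IDH2 also holds 0 matches.
IDH1: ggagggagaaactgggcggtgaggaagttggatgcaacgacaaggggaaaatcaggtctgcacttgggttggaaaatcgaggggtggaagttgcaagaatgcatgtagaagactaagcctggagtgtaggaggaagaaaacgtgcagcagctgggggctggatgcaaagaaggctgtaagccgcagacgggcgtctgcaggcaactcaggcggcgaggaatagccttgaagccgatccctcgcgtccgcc

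Malic enzymes, which decarboxylate malate to pyruvate, divided by isoform. ME1, the cytosolic NADP-linked enzyme, was listed at 0 in parental HepG2 and stood at 7.97 FPKM in HepG2/metR and 9.10 FPKM with oxamate. ME3, the mitochondrial NADP-linked enzyme, was at 0.0436, 8.48 and 8.39 FPKM, an FPKM ratio of 194 between HepG2/metR and parental HepG2. Both genes were thus at or near 0 in parental HepG2 only. On the log2 scale they rose by 3.16 and 3.18, values set largely by the pseudocount: with 0.1 FPKM in its place they were 6.33 and 5.90. With oxamate the changes were 0.17 and -0.01. ME2, the mitochondrial NAD-linked enzyme, was at 9.94, 8.45 and 9.77 FPKM and passed neither threshold. It therefore made up nearly the whole malic enzyme level in parental HepG2, whereas in HepG2/metR the ratio to ME2 was 0.942 for ME1 and 1.003 for ME3. The 3 genes summed to 9.99, 24.9 and 27.3 FPKM.

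The windows of the malic enzymes that rose are printed for comparison. That of ME1 (chr6:83431052-83431301, minus strand) holds 1 match, TGACTCAGC, starting 137 bases before the transcription start. ME1 was the only gene of the 30 with this motif, in 1 of 38 windows (2.63%), against 0.456% of all windows. That of ME3 (chr11:86672617-86672866, minus strand), 1 of its 3 windows, holds TATAAA on the opposite strand at 166 bases before the start. It also holds CACGTG at 154 bases and CCAAT on the opposite strand at 133 bases. ME3 was the only gene of the 30 with TATAAA, in 1 of the 38 windows (2.63%), against 10.7% of all windows. CCAAT was found in 18 of the 38 windows (47.4%), of 16 genes, against 32.0% of all windows. The SREBP, HNF4 and TCF/LEF motifs were in 0 of the 38 windows. Those of NRF1, ETS factors, the E-box and Sp1 were in 1, 3, 3 and 9. Both windows share 20 bases with an annotated exon.
ME1: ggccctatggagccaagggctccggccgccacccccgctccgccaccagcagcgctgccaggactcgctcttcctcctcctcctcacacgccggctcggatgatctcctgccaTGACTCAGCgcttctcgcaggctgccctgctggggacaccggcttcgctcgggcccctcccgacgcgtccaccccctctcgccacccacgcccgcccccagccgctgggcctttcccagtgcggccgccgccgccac
ME3: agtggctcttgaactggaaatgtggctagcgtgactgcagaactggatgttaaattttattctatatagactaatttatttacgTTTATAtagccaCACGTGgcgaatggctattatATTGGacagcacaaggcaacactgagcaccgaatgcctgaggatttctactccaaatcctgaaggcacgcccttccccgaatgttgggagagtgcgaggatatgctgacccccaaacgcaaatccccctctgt

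Citrate leaves mitochondria through the carrier SLC25A1 and is split by ACLY, which supplies cytosolic acetyl-CoA for lipid synthesis. SLC25A1 was at 74.1 FPKM in parental HepG2, 23.9 FPKM in HepG2/metR and 16.1 FPKM with oxamate. It was 3.10-fold lower in HepG2/metR, and its change with oxamate was -0.55, within the threshold. ACLY was at 97.9, 121 and 96.0 FPKM and passed neither threshold.

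Of the glutamine and glutamate enzymes among the 31, 3 of 3 were lower in HepG2/metR, against 17.6% of all genes kept. GLS2 was kept only through the parental library, so the filter favours its call, and it dropped out with a filter of 5 FPKM. GLUL, glutamine synthetase, was at 85.5 FPKM in parental HepG2, 3.13 FPKM in HepG2/metR and 3.32 FPKM with oxamate. It was 27.3-fold lower in HepG2/metR by FPKM, a change of -4.39 in log2(FPKM + 1). GLS2, the glutaminase isoform known from liver, was at 4.59 FPKM in parental HepG2, was listed at 0 in HepG2/metR and stood at 0.0317 FPKM with oxamate. Its change in HepG2/metR was -2.48, or -5.55 with a pseudocount of 0.1. GLUD1, mitochondrial glutamate dehydrogenase, was at 167, 38.4 and 31.2 FPKM, 4.34-fold lower in HepG2/metR. Its near-identical copy GLUD2 was listed at 1.81, 1.13 and 2.02 FPKM and the pseudogenes GLUD1P3 and GLUD1P7 at or under 0.605 FPKM, and reads may be split between them, so the value of GLUD1 is uncertain to that extent. With oxamate the differences were 0.07 (GLUL), 0.05 (GLS2) and -0.29 (GLUD1).

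Markers of periportal and perivenous hepatocytes, among which GLUL is usually counted, summed to 176, 12.2 and 16.9 FPKM over a list of 10. Of these, 7 passed the filter, some through the parental library alone, so that the filter favours genes that are lower in HepG2/metR. CYP2E1 was at 0.0563, 1.63 and 1.85 FPKM. The list's most abundant gene was ASS1 in parental HepG2 (37.5 FPKM) and TBX3 in HepG2/metR (6.40 FPKM, against 30.8 in parental HepG2). RHBG, an ammonium transporter, was at 23.7 FPKM in parental HepG2 and listed at 0 in both other libraries. LGR5 was at 34.5, 0.0994 and 0.244 FPKM and AXIN2 at 35.8, 0.736 and 1.08 FPKM, both known targets of Wnt signalling. CYP1A2 was listed at 0 in all 3 libraries. The part of these markers in the difference of GLUL was not tested.

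Of the 4 genes of the malate-aspartate shuttle among the 31, 0 passed 2-fold in HepG2/metR, where 16.6% of all genes kept were higher and 17.6% lower. With oxamate 1 was lower, against 3.82% of all genes kept, and that call is lost under 2 scalings. The shuttle carries cytosolic reducing equivalents into mitochondria. Of its aspartate-glutamate carriers, which are outside the 31, SLC25A13 was more than 2-fold lower in HepG2/metR, while SLC25A12 was at 5.12, 6.56 and 4.72 FPKM and passed neither threshold. GOT1, the cytosolic aspartate aminotransferase, was at 60.2 FPKM in parental HepG2, 53.0 FPKM in HepG2/metR and 34.9 FPKM with oxamate. It was 1.52-fold lower with oxamate by FPKM. With the pseudocount it was 1.503-fold lower, a change of -0.59 in log2(FPKM + 1). The common reference genes GAPDH and ACTB, looked up after other values had been seen, had changes of -0.66 and -0.52 with oxamate. Under upper-quartile scaling the change was -0.54, and after scaling the libraries to an equal total FPKM it was -0.42, both within the threshold. SLC25A11, the carrier that exchanges malate for oxoglutarate, was at 32.1, 23.9 and 16.2 FPKM, and MDH1, the cytosolic malate dehydrogenase, at 161, 168 and 122 FPKM. Their changes with oxamate were -0.53 and -0.46. GOT2, the mitochondrial aminotransferase, was at 89.4, 61.3 and 56.8 FPKM, with a change of -0.11. The cytosolic to mitochondrial ratio was 0.674, 0.864 and 0.615 for GOT1 to GOT2, and 1.56, 2.69 and 2.08 for MDH1 to MDH2. In both pairs it was highest in HepG2/metR without oxamate.

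The window of GOT1, which lies within an annotated exon and is not printed, holds 6 matches, the most of the 6 windows looked at. CCAAT matched at 249 bases before the start and, on the opposite strand, at 203, 160, 108 and 67 bases. TGATGCAA matched on the opposite strand at 198 bases, directly next to a CCAAT match. GOT1 was the only gene of the 30 with TGATGCAA, in 1 of 38 windows (2.63%), against 0.772% of all windows.

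Over the 31 genes, 22 changes with oxamate were below 0 and 9 above as deposited, beside 5563 below and 6461 above among all 12210 genes kept. The count over the 31 genes turns with the scaling. Below 0 were 17 of 31 under upper-quartile scaling, 11 of 31 after scaling to an equal total FPKM and 24 of 31 under median-of-ratios scaling. The same-total scaling moved the median of all genes kept to 0.17, so relative to all genes the 31 were at -0.10, beside -0.12 as deposited. It also moved the counts of all genes from 525 higher and 466 lower to 1184 higher and 192 lower, and upper-quartile scaling to 661 higher and 374 lower. Genes of S phase and mitosis moved in the same library. Of 16, 10 were at least 1.5-fold lower with oxamate and 0 higher as deposited, against 3.82% and 4.3% of all genes kept, and this count was not recomputed under other scalings. Their median change was -0.81, and they summed to 1429, 1581 and 940 FPKM; the most abundant was PCNA in parental HepG2 and HepG2/metR. Their part in the differences with oxamate was not tested.

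**Figure D3:**
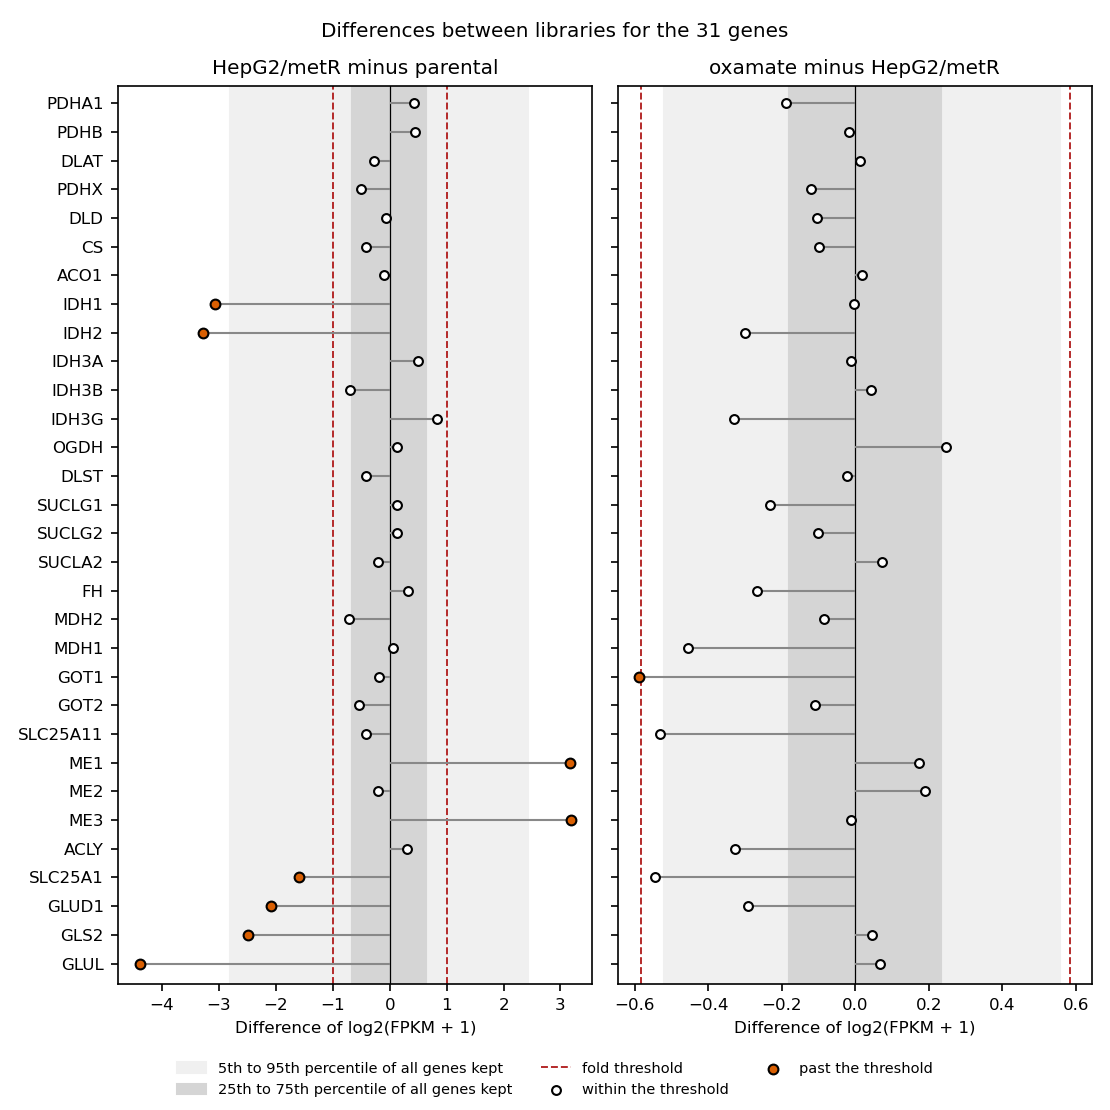
Change of each of the 31 genes as the difference of log2(FPKM + 1), HepG2/metR minus parental on the left and oxamate minus HepG2/metR on the right, with axes of different range. Dashed lines are the 2-fold and 1.5-fold thresholds, filled points lie past them, and grey bands span the 5th to 95th and the 25th to 75th percentile of all 12210 genes kept. On the left 8 genes lie past a line and on the right 1, GOT1, at the line itself under the scaling as deposited.

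Other genes of the same pathways, in 6 lists, were set beside the 31. Of 55 genes found, 49 were kept. In HepG2/metR 4 of 49 (8.16%) were higher and 14 of 49 (28.6%) lower, against 16.6% and 17.6% of all genes kept, and with oxamate 1 was higher (2.04%, against 4.3%) and 6 lower (12.2%, against 3.82%). The oxamate counts are for the values as deposited. Counts over all genes shift with the scaling, and those of these 49 genes were not recomputed under it. The 6 lower changes lay between -0.61 (LIAS) and -0.74 (SLC1A5). Same-total scaling moved the change of GOT1 from -0.59 to -0.42, and a shift of that size is enough to bring calls of this list within the threshold. The 6 lower genes are therefore not read as an excess over all genes. SLC38A3, SLC38A5 and PSAT1 were kept only through the parental library, so the filter favours the count of lower genes in HepG2/metR. Over the 49 genes, the changes had a median of -0.40 in HepG2/metR and of -0.10 with oxamate. The counts of the single lists stand against the same shares of all genes kept.

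Around pyruvate, 1 of 10 genes was higher and 3 lower in HepG2/metR, against 16.6% and 17.6% of all genes kept. MPC1, a subunit of the mitochondrial pyruvate carrier, was at 139 FPKM in parental HepG2, 9.32 FPKM in HepG2/metR and 10.5 FPKM with oxamate. PC, the carboxylase that makes oxaloacetate from pyruvate, was at 16.7, 4.80 and 5.31 FPKM, and PCK2, the mitochondrial phosphoenolpyruvate carboxykinase, at 126, 20.8 and 12.2 FPKM. These 3 genes were thus lower in both HepG2/metR libraries than in parental HepG2. PDP1, a phosphatase that activates pyruvate dehydrogenase, went the other way, at 1.73, 17.6 and 20.9 FPKM. With oxamate, 1 of 10 was higher and 3 lower as deposited, against 4.3% and 3.82%. PDP2, the other phosphatase isoform, rose from 7.31 to 13.6 FPKM. PDK1 and PDK3, kinases that inactivate the complex, fell from 9.65 to 5.51 FPKM and from 2.08 to 0.975 FPKM. PDK2, another of these kinases, was at 11.8, 8.92 and 9.46 FPKM and passed neither threshold. PCK2 fell by 0.72 on the log2 scale.

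Of 11 other enzymes and assembly factors of the cycle, 0 were higher and 2 lower in HepG2/metR, and 0 passed the threshold with oxamate. The lower genes were SDHAF1, an assembly factor of succinate dehydrogenase, at 11.8, 4.12 and 4.49 FPKM, and D2HGDH, which oxidises D-hydroxyglutarate, at 16.7, 5.32 and 5.89 FPKM. Of 5 other carriers kept, 2 were lower in HepG2/metR. SLC25A10, the dicarboxylate carrier, was at 62.8, 16.5 and 9.66 FPKM and was lower with oxamate as well. SLC25A13, an aspartate-glutamate carrier of the shuttle, was at 34.4, 13.2 and 11.1 FPKM.

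Among 14 genes of glutamine uptake and use, 3 (21.4%) were higher and 5 (35.7%) lower in HepG2/metR, against 16.6% and 17.6% of all genes kept, and the share of higher genes is near the background. The higher genes were SLC38A1, a glutamine transporter, at 29.8, 69.5 and 59.2 FPKM, and CAD and CTPS1, which use glutamine for pyrimidine synthesis, at 13.2, 28.7 and 24.7 FPKM and at 38.6, 162 and 143 FPKM. Among transporters, SLC38A2 was at 244, 100.0 and 112 FPKM, SLC38A3 at 30.4, 0.0299 and 0.0585 FPKM and SLC38A5 at 29.1, 0.0758 and 0.0371 FPKM. The last 2 were near 0 in both HepG2/metR libraries. GPT2, an alanine aminotransferase, was at 69.6, 10.0 and 6.89 FPKM, and PSAT1, the phosphoserine aminotransferase that uses glutamate, at 191, 0.0532 and 0.129 FPKM. With oxamate 1 of the 14 genes was lower, SLC1A5, a glutamine importer, at 129, 213 and 127 FPKM.

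In the lipoate list, whose products supply the cofactor of pyruvate and oxoglutarate dehydrogenase, 0 of 4 genes passed 2-fold in HepG2/metR and 1 was lower with oxamate. LIAS, the lipoate synthase, was at 11.7, 7.60 and 4.62 FPKM. Of 5 genes of citrate and acetyl-CoA use, 2 were lower in HepG2/metR and 0 passed the threshold with oxamate. ACSS1 and ACSS2, which make acetyl-CoA from acetate in mitochondria and cytosol, were at 14.4, 4.16 and 5.12 FPKM and at 23.9, 6.20 and 7.50 FPKM.

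**Figure D4:**
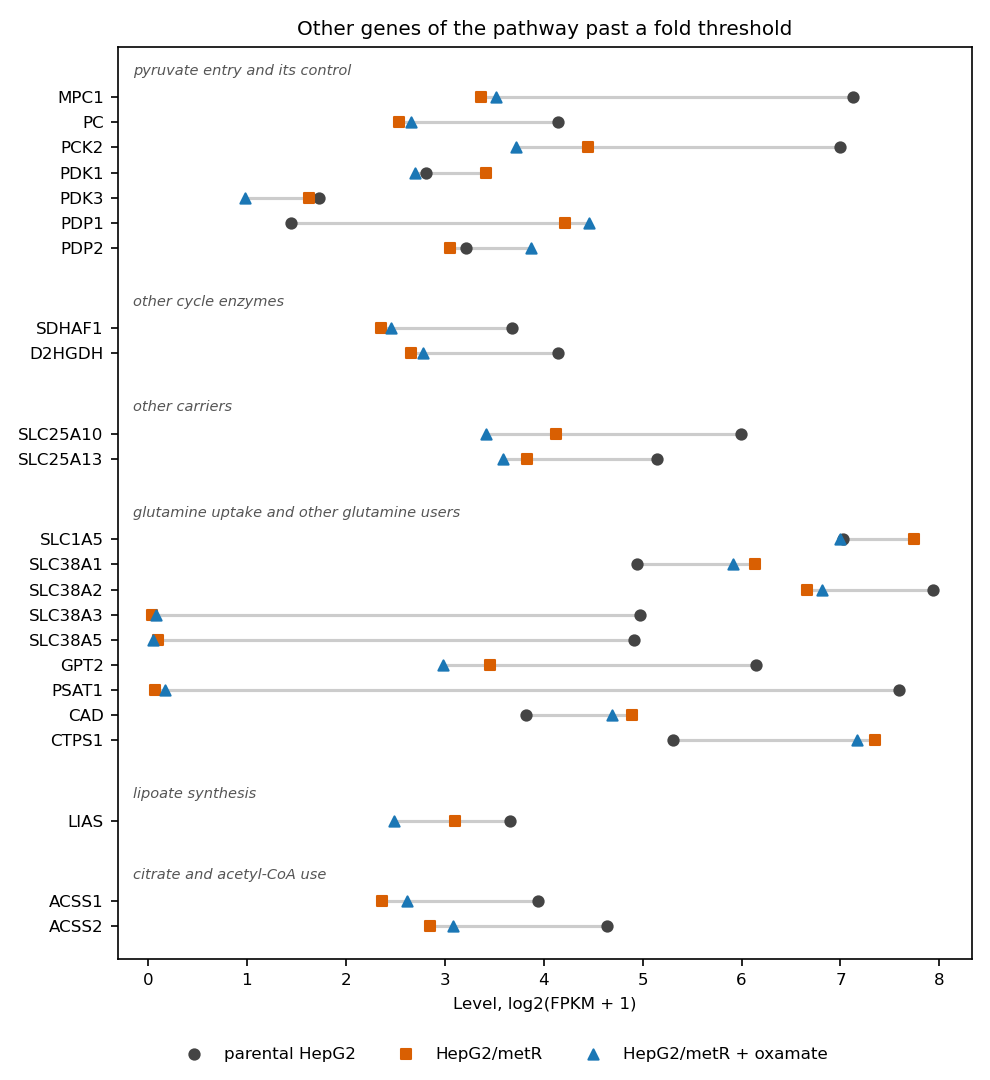
Level, as log2(FPKM + 1), of the genes of the 6 other pathway lists that passed a fold threshold in either comparison; circles are parental HepG2, squares HepG2/metR and triangles HepG2/metR with oxamate, 1 library each. MPC1, SLC38A3, SLC38A5 and PSAT1 have squares and triangles far to the left of the circles, and PDP1 and CTPS1 far to the right.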

How the data were processed

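The 3 libraries were sequenced from total RNA on an Illumina instrument. The deposited values, 1 per entry and library, are on a log2 scale and have the form log2(FPKM + 1), which was inferred from the values. The submitters' processing notes name STAR 2.5.1b, FastQC 0.11.5, Cufflinks 2.2.1 and hg19 without their roles; the annotation, strand setting and filters used by the authors are not given in the sources used here. No further scaling was applied. Genes with a mean of at least 1 FPKM were kept, and fold thresholds of 2 and 1.5 follow the study's methods. Of the symbols, 28 had been turned into dates, with 2 repeats among them, and were not used by name. Depth in reads is unknown; relative depth was taken from the mode of the ratios between libraries among values below 0.15 FPKM. Members and lists were chosen with earlier results of these data known. Named were all 31 members, genes of the other pathway lists past a threshold or else a list's most abundant gene, and, of marker lists, the most abundant gene and genes at or near 0. HNF4A, LDHA, LDHB, GAPDH, ACTB, SLC25A12, PDK2, antisense genes, copies of GLUD1 and other markers given with values were added after the values were seen. Some genes of these lists are not reported here by name. The lists of hepatocyte, mesenchymal, endothelial, leukocyte, liver zone, S phase and mitosis, and mitochondrial import genes were written from general knowledge. Groups hold 1 library, so no p-value was computed. Alternatives were pseudocounts of 0.1 or none, no filter or a filter of 5 FPKM, median-of-ratios, upper-quartile and same-total scaling, and exchanged fold thresholds. Calculations ran in Python 3.11.15 with numpy 2.4.6, pandas 2.3.3 and matplotlib 3.10.9 and were tested on simulated data.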

Additional observations from a re-analysis of the deposited data

How the results depend on the processing

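No paired analysis was possible because each condition has 1 library, and for the same reason no replicate could be left out. Under other pseudocounts and scalings, 305 of the recomputed changes of single genes stayed on the same side of the fold threshold and 2 did not; genes within the threshold could change sign. Both were the change of GOT1 with oxamate, at -0.54 under upper-quartile scaling and -0.42 with the same total. The count of genes lower with oxamate was accordingly 0 under either scaling, and 0 at a 2-fold threshold. With no pseudocount the count higher in HepG2/metR was 1, since ME1 is listed at 0 in parental HepG2. At 1.5-fold it was 3, with IDH3G. Changes with oxamate of ratios, and that of ME1 to ME2, were not recomputed; in HepG2/metR that of ME3 to ME2 went from 7.84 to 6.13 and 3.39 with pseudocounts of 0.1 and 1, and that of IDH1 to IDH2 from 0.39 to 0.37 and 0.20. The change of ME3 itself was 7.60 with no pseudocount. The count lower in HepG2/metR ranged from 5, without GLS2, to 8 at a 1.5-fold threshold, which adds IDH3B and MDH2. The median change in HepG2/metR was -0.057 under upper-quartile scaling, where all genes were at 0.15, and the median with oxamate was 0.070 with the same total.

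Among all genes, 2021 were higher and 2147 lower in HepG2/metR; at a mean of 5 FPKM or more these were 1249 and 1428, and at 1.5-fold 3262 and 3301. With oxamate 466 were lower, against 192 with the same total and 64 at 2-fold. The 525 that were higher became 1018 and 1111 with a pseudocount of 0.1 or none, 1184 with the same total, 271 at 5 FPKM or more and 66 at 2-fold. Without replicates or read counts, no error can be put on any of these values.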

Other observations

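Genes of mitochondrial import and structure, which are not part of the pathways above, summed to 4108 FPKM in parental HepG2, 2680 FPKM in HepG2/metR and 2128 FPKM with oxamate. In HepG2/metR, 0 of 18 passed the 2-fold threshold upward and 1 passed it downward, against 16.6% and 17.6% of all genes kept, and the median change was -0.03. The lower gene was HSPE1, a chaperonin subunit, at 1297 FPKM in parental HepG2, 468 FPKM in HepG2/metR and 325 FPKM with oxamate. HSPD1, the chaperonin it works with, was at 1262, 633 and 568 FPKM, a change of -0.99 in HepG2/metR, just within the threshold. The fall of the sum from parental HepG2 to HepG2/metR lies in HSPE1 and HSPD1. With oxamate, 17 of the 18 were below 0 as deposited, with a median of -0.29, beside 5563 of all 12210 genes kept and a median of 0.02. Of the 18, 2 were at least 1.5-fold lower, against 3.82% of all genes kept. These were TOMM40, the channel of the outer membrane translocase, at 85.4, 90.2 and 55.2 FPKM, and PHB, a prohibitin, at 252, 259 and 169 FPKM. Their changes were -0.70 and -0.62. Neither these calls nor the count below 0 was recomputed under other scalings. Same-total scaling moved the change of GOT1 from -0.59 to -0.42, and a shift of that size is enough to bring calls this near the threshold within it.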
